A study of Mus musculus with 4 samples.

Results

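The genes described here build ribosomes: RNA polymerase I, which transcribes ribosomal RNA (rRNA), and the nucleolar factors that modify, cut and assemble that RNA into the small and large ribosomal subunits. The list names 59 genes. A row was taken wherever the symbol in the table equalled a listed gene, which gave 58 of 37305 rows, and no symbol was repeated. Noc2l was not analysed here. The 58 genes were sorted by textbook role into RNA polymerase I transcription (8 genes), the small nucleolar ribonucleoproteins or snoRNPs (8), nucleolar factors that act at several steps (4), the small subunit processome (17), later small subunit maturation (7) and large subunit processing (14).

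The cells were primary natural killer (NK) cells, the innate lymphocytes that kill infected or transformed cells, taken from spleens of C57BL/6 mice at postnatal day 56. All libraries come from cells held for 24 hours in 50 ng/ml of mouse IL-15, a cytokine that drives NK cell growth. For another 24 hours the cells received a mock treatment (control, 2 libraries) or DKK2 at 200 ng/ml (2 libraries), a secreted ligand of the Wnt co-receptors LRP5 and LRP6. The labels number the libraries within a group but do not say whether they came from separate animals or cultures, so p-values reflect just the scatter of these libraries, part or all of which may be technical. Levels are in FPKM, that is fragments per length of transcript and per mapped fragments of the library. Comparisons of level between genes are approximate, since library differences that move with base composition and overlaps between genes, both described below, remain.

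A ribosome starts in the nucleolus with one long rRNA precursor made by RNA polymerase I. Box C/D and box H/ACA snoRNPs, guided by small nucleolar RNAs, methylate the precursor and convert uridines to pseudouridine. The small subunit processome, a large particle built on the U3 snoRNP, folds and cuts the part that becomes 18S rRNA, while other factors process the part for the large subunit. Lymphocytes that begin to grow under cytokines raise this whole machinery, and the transcription factor MYC is a well known activator of its genes.

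No gene of the list passed the test between DKK2 and control, but 53 of 58 had a lower fitted level with DKK2. The test was limma on log2(FPKM + 1) over 12275 rows with a mean of at least 1 FPKM, with Benjamini-Hochberg adjustment and a threshold of 0.05. It called 0 of 58 list genes, against 0.0326% of all rows (4 rows), and the adjusted p was 1 for each list gene. At an unadjusted p under 0.05 limma counted 1 list gene, Utp20, which was lower, against 0.766% of all rows lower at that level, and 0 list genes were higher at that level, against 1.08% of all rows. A fitted fold change below 0 was found in 56.4% of all rows. The median log2 fold change, DKK2 minus control, was -0.35 over the list and -0.05 over all rows tested. The list was chosen with earlier results of these data known. The shares of all rows, here and below, therefore give a scale and are no independent support.

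Both DKK2 libraries were under both controls in 29 of 58 genes, where 14.8% of all rows did so. In 0 of 58 genes both lay above, where 11.8% of all rows did. The 2 DKK2 libraries did not share this evenly. DKK2 replicate 2 was below both controls in 53 genes, against 34.2% of all rows, and above both in 0, against 32.7%. DKK2 replicate 1 was below both controls in 34 genes and above both in 18, against 41.8% and 32.6% of all rows. The controls also differed, with control replicate 2 below control replicate 1 in 42 genes (57.8% of all rows). Both DKK2 libraries lay below control replicate 1 in 39 genes (37.5% of all rows) and below control replicate 2 in 30 genes (23.8% of all rows). The number of genes with a lower fitted level, 53 with all libraries, was 40 with DKK2 replicate 2 left out, 57 with DKK2 replicate 1 left out and 51 with each library centred on its median. The share of all rows lower is not given for these alternatives, and the 56.4% above belongs to the main fit only.

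**Figure D1:**
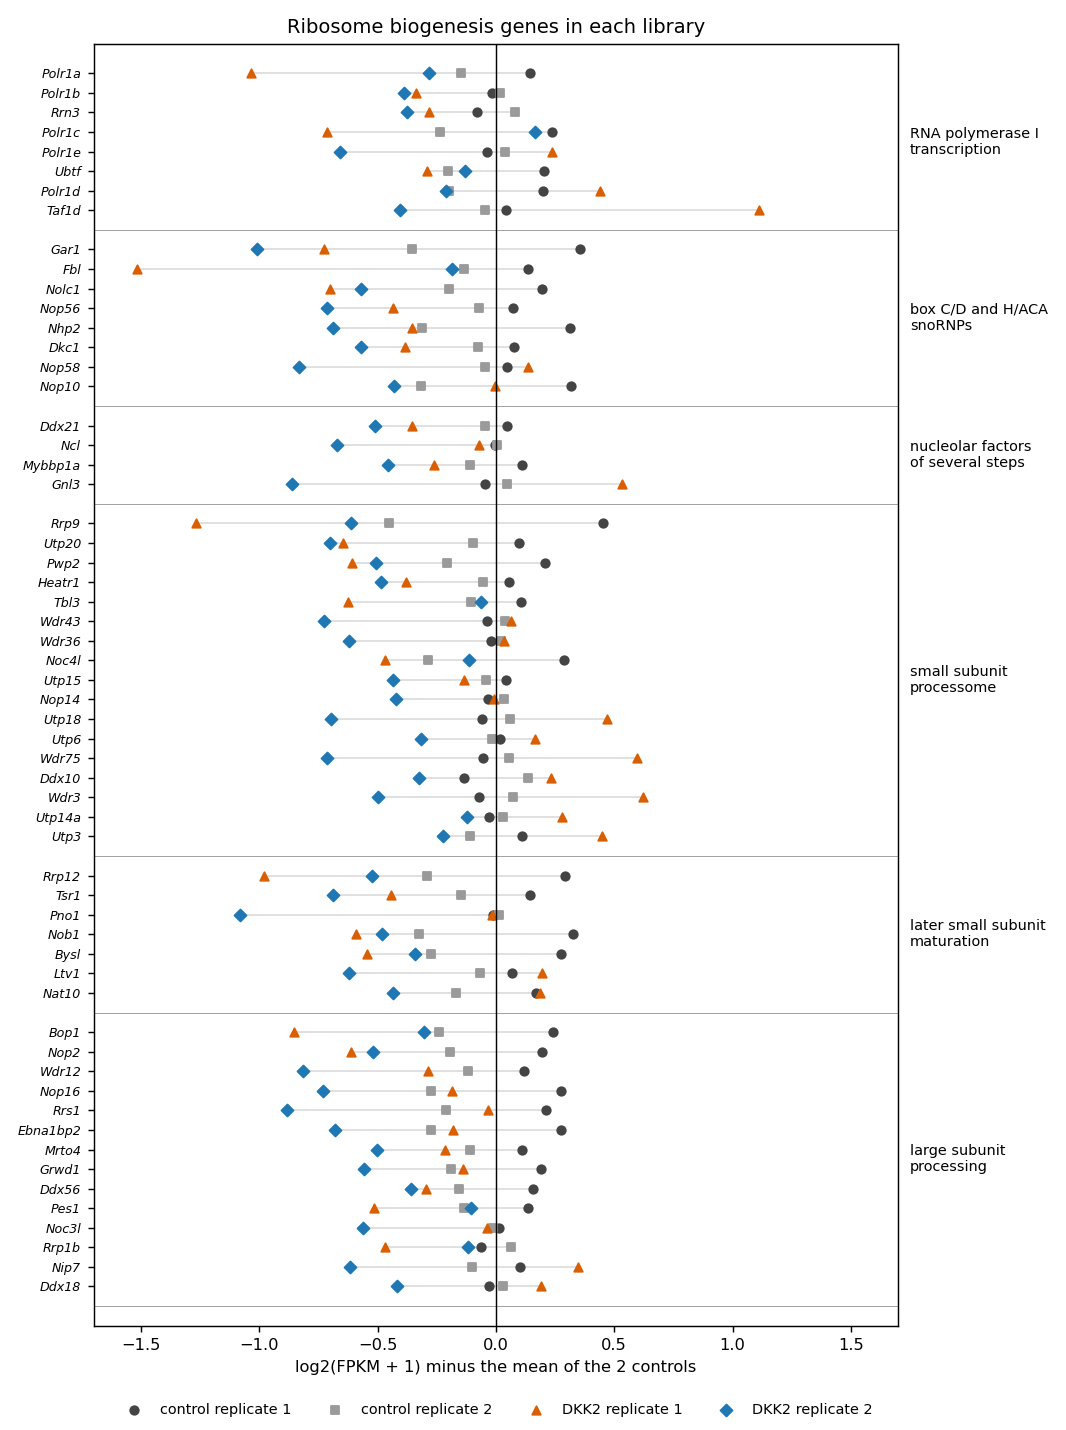
Each row is 1 of the 58 genes, and each point is 1 library's log2(FPKM + 1) minus the mean of the 2 controls, with the genes grouped by step and ordered by fitted fold change. DKK2 replicate 2 (diamonds) lies left of both controls in 53 genes, while DKK2 replicate 1 (triangles) lies left of both in 34 and right of both in 18.

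The libraries differed in depth and in markers of other cells. Read totals are not in the table, but the spacing of low values puts control replicate 1 as the deepest, and the others at 0.352 to 0.401 of its depth. By estimate the list genes had a median of 1772 to 6841 fragments per library, and at the fewest 56, for Fbl in DKK2 replicate 1. The estimate uses the longest protein-coding transcript of each gene (GENCODE M21). It may be too high where a shorter transcript is the main one, and for Ncl that length was 8202 bases. The NK marker list (8 genes) summed to 15700 and 13200 FPKM in control replicates 1 and 2 and to 9930 and 9550 FPKM in DKK2 replicates 1 and 2, with no marker at 0. Most of each sum was Gzmb (granzyme B, 11540 and 9908 FPKM, then 6895 and 6115 FPKM). Of the 8 NK markers 5 had a higher fitted level with DKK2, and the median was 0.10. In the same order, 8 T cell markers summed to 28.7, 130, 225 and 179 FPKM, 10 monocyte and macrophage markers to 66.5, 487, 1040 and 835 FPKM, 8 neutrophil markers to 1.04, 61.9, 3510 and 121 FPKM, and 8 B cell markers to 0.642, 24.1, 5.97 and 39.5 FPKM. All 34 of these markers of other cells were lowest in control replicate 1, where 2 T cell, 3 monocyte and macrophage and 4 neutrophil markers were listed at 0. The part of these differences in the results below was not tested. In such bulk samples fewer cells of a type and less RNA per cell cannot be told apart.

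RNA polymerase I transcription had a median log2 fold change of -0.24, with 6 of 8 genes lower and 3 whose groups did not overlap. For this step and those below, the counts stand against 56.4% of all rows lower. Both DKK2 libraries were below both controls in 14.8% of all rows and above both in 11.8%. Polr1a, which encodes the largest subunit of the enzyme, was at 19.32 and 15.6 FPKM in control replicates 1 and 2 and at 7.967 and 14.08 FPKM in DKK2 replicates 1 and 2. Both DKK2 values were the lower ones, and DKK2 replicate 1 stood farthest away (log2 fold change -0.66 ± 0.35 SE, 95% interval -1.56 to 0.24). The second largest subunit, Polr1b, stood at 22.38 and 22.92 FPKM in the controls and at 17.71 and 17.05 FPKM with DKK2. Here the libraries of each group were close together and the groups did not overlap (-0.36 ± 0.23, interval -0.96 to 0.24). Rrn3, the factor that brings the polymerase to the promoter, was at 23.44 and 26.29 FPKM against 20.23 and 18.9 FPKM, also without overlap (-0.33 ± 0.24).

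The mean of 2 genes, Polr1d and Taf1d, was on the higher side with DKK2. Polr1d, a subunit shared with RNA polymerase III and the most abundant of the group, stood at 85.08 and 64.21 FPKM in the controls and at 100.6 and 63.78 FPKM with DKK2, so that DKK2 replicate 1 was the highest library and DKK2 replicate 2 the lowest (0.11 ± 0.34). Taf1d, a part of the SL1 promoter complex and a host gene of snoRNAs, stood at 27.78 and 26.07 FPKM in the controls, 59.24 FPKM in DKK2 replicate 1 and 20.08 FPKM in DKK2 replicate 2. The 2 DKK2 libraries thus lay on either side of the controls, and the positive mean (0.35 ± 0.54) came from DKK2 replicate 1 alone. Without that library the Taf1d value was -0.40. Without control replicate 1 the median of the group was -0.14.

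The snoRNP genes were lower in 8 of 8 cases, with a median of -0.55 and 6 genes whose groups did not overlap. The H/ACA core consists of the pseudouridine synthase dyskerin (Dkc1) and its partners Gar1, Nhp2 and Nop10. Gar1 stood at 190.9 and 116.3 FPKM in the controls and at 89.54 and 73.53 FPKM with DKK2. Both DKK2 libraries were below both controls, but the controls themselves differed more than the DKK2 libraries did (-0.87 ± 0.34, interval -1.75 to 0.01, unadjusted p = 0.0519 and adjusted p = 1 in limma). Dkc1 was at 280.8 and 252.1 FPKM against 203.8 and 178.7 FPKM (-0.48 ± 0.26), with Nhp2 at 165.2 and 106.6 FPKM against 103.6 and 81.93 FPKM (-0.52 ± 0.33). Nop10 was the one of the 4 whose groups overlapped, at 120.8 and 77.62 FPKM against 96.64 and 71.62 FPKM (-0.22 ± 0.34). DKK2 replicate 2 was the lowest library in all 4 genes and control replicate 1 the highest in all 4.

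Of the box C/D core, Nop56 was the most abundant gene of the list at 353.6 and 320.6 FPKM in the controls and 248.9 and 205 FPKM with DKK2. The groups were apart by more than either pair of replicates (-0.57 ± 0.27, interval -1.27 to 0.13). Its paralogue Nop58 stood at 136 and 127.7 FPKM in the controls, 144.8 FPKM in DKK2 replicate 1 and 73.67 FPKM in DKK2 replicate 2, so only the latter was low (-0.35 ± 0.39). The methyltransferase fibrillarin (Fbl) sits in the same particle, yet it was listed at only 8.644 and 7 FPKM in the controls and 2.071 and 6.721 FPKM with DKK2 (-0.85 ± 0.51). Its level per length was thus far under those of Nop56 and Nop58 in every library, and its values are uncertain. By estimate it had the fewest fragments of the list, 588 and 167 in control replicates 1 and 2. In DKK2 replicates 1 and 2 it had 56 and 183. DKK2 replicate 2 was only just below control replicate 2. The labels and headers state the handling of multiply mapped fragments for no gene, and the reason for the low level was not tested. Nolc1 (Nopp140), a chaperone of both kinds of snoRNP, was at 91.25 and 69.24 FPKM against 48.48 and 53.25 FPKM, again with the groups apart (-0.64 ± 0.27, interval -1.33 to 0.06).

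**Figure D2:**
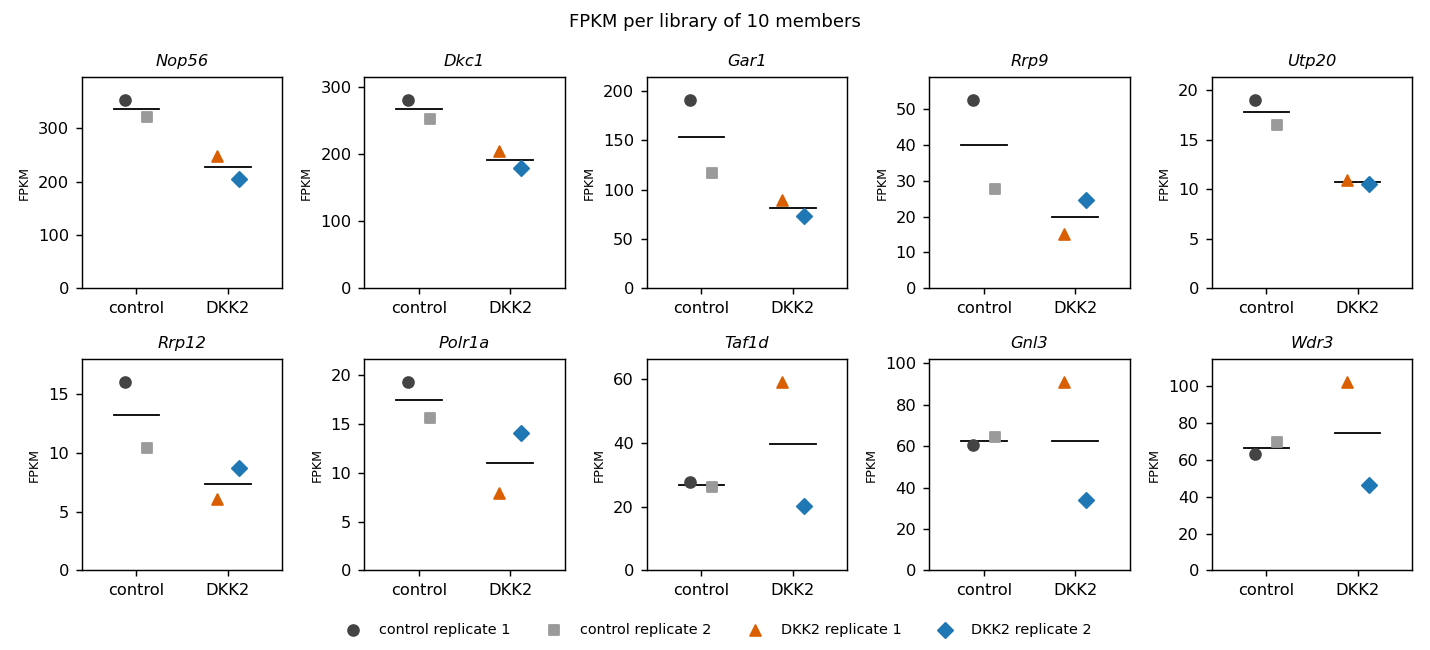
FPKM (linear axis from 0) in the 2 control and 2 DKK2 libraries for 10 genes of the list, with a bar at each group's mean. Nop56, Dkc1, Gar1, Rrp9, Utp20, Rrp12 and Polr1a have both DKK2 libraries below both controls, whereas in Taf1d, Gnl3 and Wdr3 the DKK2 libraries lie on either side of the controls.

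Of the 4 nucleolar factors that act at several steps, 4 were lower (median -0.36), and in 3 the groups did not overlap. Nucleolin (Ncl), an abundant RNA-binding protein of the nucleolus, stood at 240.4 and 242.2 FPKM in the controls, 229.8 FPKM in DKK2 replicate 1 and 151 FPKM in DKK2 replicate 2 (-0.37 ± 0.31). DKK2 replicate 1 was close to the controls, and the difference in the mean rested on DKK2 replicate 2. The RNA helicase Ddx21 was at 123.9 and 116.3 FPKM against 93.52 and 83.88 FPKM (-0.43 ± 0.24), with Mybbp1a, a nucleolar partner of MYB, at 169.4 and 145.1 FPKM against 130.7 and 114 FPKM (-0.36 ± 0.26). In both genes the groups were apart. Nucleostemin (Gnl3), a nucleolar GTPase of proliferating cells, stood at 60.61 and 64.56 FPKM in the controls, 90.97 FPKM in DKK2 replicate 1 and 33.96 FPKM in DKK2 replicate 2. The controls agree closely and the DKK2 libraries lie far to either side, which left a mean near 0 with a wide error (-0.16 ± 0.50). The median of the 4 was -0.17 without DKK2 replicate 2 and -0.59 without DKK2 replicate 1.

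The small subunit processome, which folds and cuts the 18S part of the precursor, had 14 of 17 genes lower and 3 higher in the fit, with a median of -0.28, but in only 5 did both DKK2 libraries stay under both controls. DKK2 replicate 2 was below both controls in 15 of the 17, against 34.2% of all rows. DKK2 replicate 1 was above both in 9 and below both in 7, against 32.6% and 41.8% of all rows. The median was 0.03 with DKK2 replicate 2 left out and -0.48 with DKK2 replicate 1 left out.

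Rrp9, the protein that marks the U3 snoRNP, stood at 52.52 and 27.58 FPKM in the controls and at 15.23 and 24.57 FPKM with DKK2. This was the largest fitted difference of the list (-0.94 ± 0.42, interval -2.04 to 0.16), although the lower control and the higher DKK2 library were close. Utp20, a scaffold of the particle, was at 19.05 and 16.49 FPKM against 10.95 and 10.51 FPKM. Its replicates agree well, and its interval was the only one of the 58 to leave out 0 (-0.68 ± 0.24, interval -1.30 to -0.05, unadjusted p = 0.0398 and adjusted p = 1 in limma).

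The UtpA complex binds the precursor first. Its 4 genes on the list ranged from 21.18 to 52.99 FPKM in control replicate 1 and from 19.95 to 55.9 FPKM in control replicate 2. The ranges were 18.62 to 60.18 FPKM in DKK2 replicate 1 and 14.96 to 32.48 FPKM in DKK2 replicate 2. Heatr1, the largest of them, stood at 30.95 and 28.62 FPKM in the controls and 22.63 and 20.99 FPKM with DKK2 (-0.43 ± 0.24), and its groups did not overlap. Its partner Wdr75 stood at 37.99 and 41.03 FPKM in the controls, 60.18 FPKM in DKK2 replicate 1 and 23.71 FPKM in DKK2 replicate 2 (-0.06 ± 0.48). Genes of a single complex therefore lay on both sides of the controls in DKK2 replicate 1, and all 4 lay below them in DKK2 replicate 2.

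Genes of the UtpB complex, which has 6 on the list, also lay on both sides, and Pwp2, Wdr3 and Utp6 are given here. Pwp2 was at 20.54 and 15.15 FPKM against 11.25 and 12.12 FPKM, with both DKK2 libraries low (-0.56 ± 0.27). Wdr3 stood at 62.97 and 69.5 FPKM in the controls, 102.2 FPKM in DKK2 replicate 1 and 46.5 FPKM in DKK2 replicate 2 (0.06 ± 0.43), with Utp6, the most abundant processome gene, at 82.1 and 80 FPKM, then 90.86 and 64.92 FPKM (-0.08 ± 0.28). Outside the named complexes, Utp3 (Sas10) was at 66.88 and 57.19 FPKM against 84.73 and 52.8 FPKM (0.11 ± 0.32). Utp14a, which activates the helicase that releases U3, was at 27.55 and 28.82 FPKM against 34.36 and 25.8 FPKM (0.08 ± 0.26). In Wdr3, Utp6, Utp3 and Utp14a, DKK2 replicate 1 was the highest library and DKK2 replicate 2 the lowest, and the sign of the mean depended on which was left out.

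The 7 genes of later small subunit maturation were all lower in the fit (median -0.54), 5 of them without overlap of the groups. Rrp12, an export factor of the pre-40S particle, stood at 16.03 and 10.37 FPKM in the controls and 6.056 and 8.675 FPKM with DKK2 (-0.75 ± 0.34, interval -1.62 to 0.12). Tsr1, a GTPase-like assembly factor, was at 62.99 and 51.29 FPKM against 41.57 and 34.84 FPKM (-0.57 ± 0.26), with Nob1, the endonuclease that makes the 3' end of 18S rRNA, at 37.12 and 23.25 FPKM against 19.19 and 20.79 FPKM (-0.54 ± 0.31). In Rrp12 and Nob1 control replicate 1 stood well above the other 3 libraries. Pno1, the partner of Nob1, stood at 56.64 and 57.76 FPKM in the controls and at 56.47 FPKM in DKK2 replicate 1, which is level with them, and at 26.53 FPKM in DKK2 replicate 2 (-0.55 ± 0.41). Without control replicate 1 the median of the 7 genes was -0.21.

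Large subunit processing was lower in 14 of 14 genes (median -0.35), and in 7 the groups did not overlap. Nop2, an rRNA methyltransferase, stood at 43.9 and 33.28 FPKM in the controls and 24.64 and 26.35 FPKM with DKK2 (-0.57 ± 0.26, interval -1.25 to 0.11). The PeBoW complex consists of Pes1, Bop1 and Wdr12 and is needed to mature the large subunit rRNAs. Bop1 was at 44.95 and 31.88 FPKM against 20.5 and 30.46 FPKM (-0.58 ± 0.33), with DKK2 replicate 2 only just below the lower control. Wdr12 was at 30.08 and 25.32 FPKM against 22.44 and 15.23 FPKM (-0.55 ± 0.30), with DKK2 replicate 2 the lowest. Pes1 was at 51.27 and 42.25 FPKM against 32.26 and 43.21 FPKM, where DKK2 replicate 2 was just above the lower control (-0.31 ± 0.28).

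Among the other large subunit genes, Ebna1bp2 had the highest level, at 143.7 and 98.03 FPKM in the controls and 104.5 and 73.66 FPKM with DKK2 (-0.43 ± 0.33). Rrs1, a factor for the 5S particle, was at 28.94 and 21.28 FPKM against 24.25 and 13.01 FPKM (-0.46 ± 0.38). In both genes DKK2 replicate 1 lay between the controls. The smallest fitted differences of the step were those of Ddx18 (-0.11 ± 0.30) and Nip7 (-0.13 ± 0.39), which had DKK2 replicate 1 above both controls. Leaving out control replicate 1 or DKK2 replicate 2 brought the median of the step to -0.21 and -0.20, and leaving out control replicate 2 or DKK2 replicate 1 brought it to -0.51 and -0.54.

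**Figure D3:**
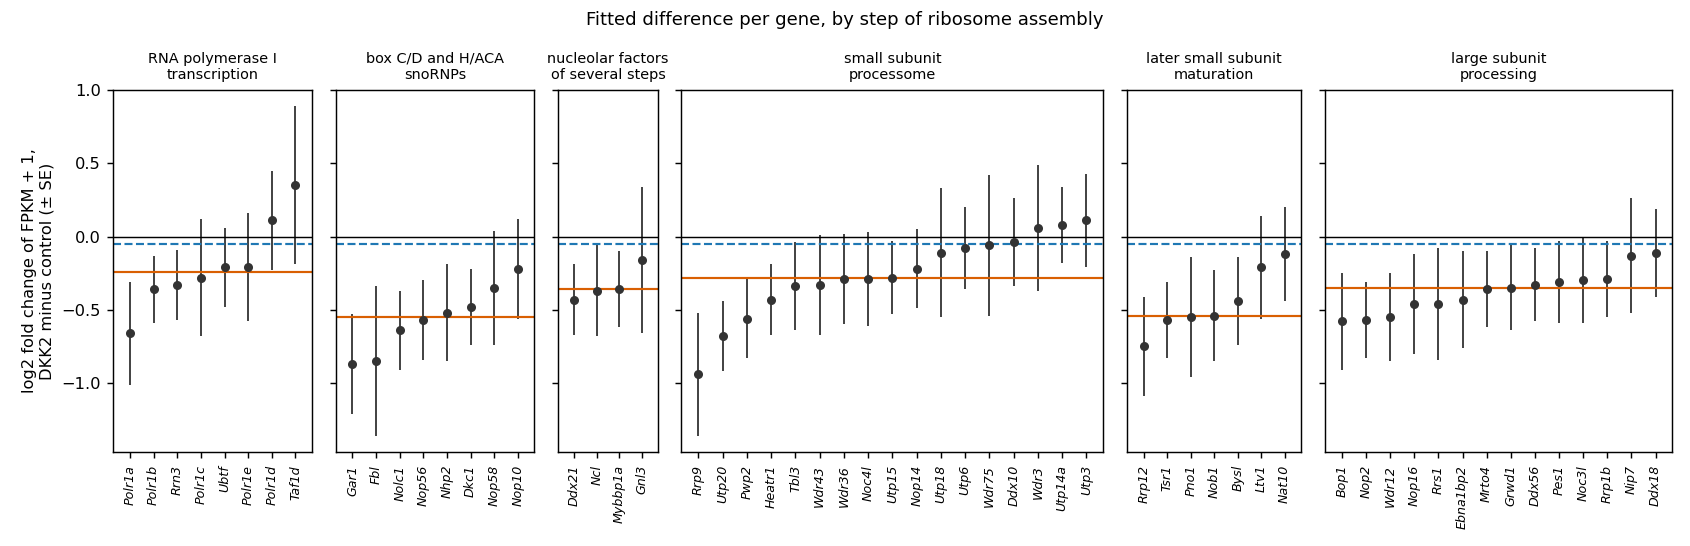
Fitted log2 fold change of FPKM + 1 (DKK2 minus control, bars ± SE from limma) for the 58 genes, 1 panel for each step, with the median of the step as a solid line and the median of all rows tested (-0.05) as a dashed line. The medians lie between -0.24 for RNA polymerase I transcription and -0.55 for the snoRNPs, and the SE of single genes ranges from 0.23 to 0.54.

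The medians of the steps were -0.55 (snoRNPs), -0.54 (later small subunit maturation), -0.36 (nucleolar factors), -0.35 (large subunit processing), -0.28 (processome) and -0.24 (RNA polymerase I transcription). They are given as a description, and differences between steps were not tested. The pooled SD, within a group, of the library medians of log2(FPKM + 1) was 0.12 to 0.53 over the steps. That SD is a spread of levels and not of fold changes, so it gives no scale for differences between the step medians. Against the mean of the controls, DKK2 replicate 2 had medians of -0.33 to -0.63 in the 6 steps, whereas DKK2 replicate 1 ranged from -0.44 in later small subunit maturation to 0.03 in the processome.

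The split of the list in DKK2 replicate 1 moved with the base composition of the transcripts. Transcript GC content (GENCODE M21, longest protein-coding transcript by symbol) was found for 58 of 58 genes and ranged from 40.4% for Wdr12 to 59.8% for Rrp9. Against the mean of the controls, the 20 genes with the lowest GC (up to 46.5%) had a median of 0.05 in DKK2 replicate 1 and -0.62 in DKK2 replicate 2. For the 20 genes with the highest GC (above 53.3%) the medians were -0.57 and -0.47. DKK2 replicate 1 was above both controls in 11 of the 20 low GC genes and in 1 of the 20 high GC genes, Polr1d. These shares are near those of all rows tested in the same GC ranges, 47.3% and 13.4%. All rows tested in the same low GC range had medians of 0.11 in DKK2 replicate 1 and -0.17 in DKK2 replicate 2, and those in the high GC range had -0.35 and 0.14. In the high GC range DKK2 replicate 2 was thus above the controls in the median of all rows and below them in the median of the list.

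Across the 58 genes, GC content had a Spearman rho of -0.61 with the difference of DKK2 replicate 1 from the controls, 0.34 with that of DKK2 replicate 2 and -0.67 with the difference between the controls (replicate 2 minus replicate 1). Over the 10777 rows with a GC value (87.8% of those tested) these were -0.37, 0.33 and -0.44. The genes share their libraries and are not independent, and the first 2 differences share the controls, so these values only describe the libraries. Each library was also adjusted for GC content with a smooth curve, an alternative chosen after seeing the data. After it, 53 of 58 genes were lower and the median of the list was -0.28. There limma called 0 of the 58 (5 at an unadjusted p under 0.05, against 3.60% of all rows). The share of all rows lower after the adjustment is not given.

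**Figure D4:**
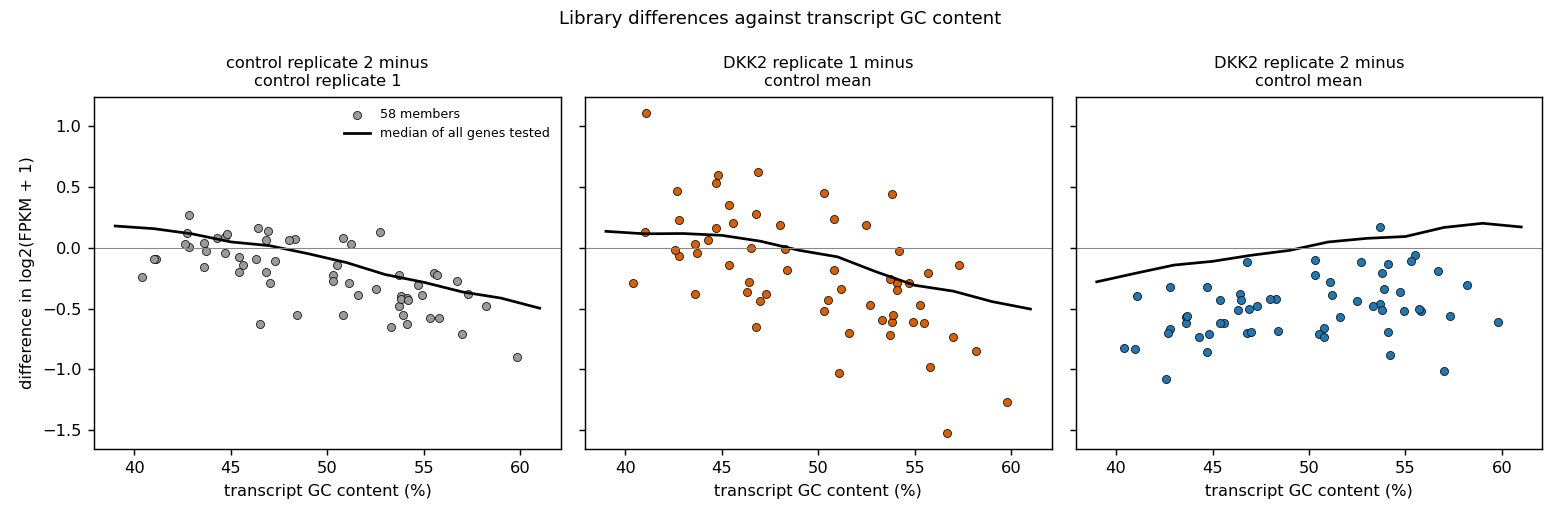
Difference in log2(FPKM + 1) (vertical axis) against transcript GC content in percent (horizontal axis) for control replicate 2 minus control replicate 1 and for each DKK2 library minus the control mean; points are the 58 genes and the line is the median of all genes tested in bins of GC. The points slope down in the first 2 panels as the line does (rho -0.67 and -0.61), and in the third panel most points lie below the line at every GC content.

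A second list held 101 further ribosome biogenesis genes, of which 97 were tested. Of these limma called 0, against 0.0326% of all rows. At an unadjusted p under 0.05 limma counted 0, against 0.766% of all rows lower and 1.08% higher. In the fit 73 were lower, against 56.4% of all rows, and 24 were higher, with a median of -0.17. The difference between the 2 lists was not tested, and single genes of the second, named here for their size after their values were seen, reached -0.77 ± 0.53 (Brix1, a large subunit factor) and 0.73 ± 0.49 (Exosc9, an exosome subunit). The DKK2 libraries were both under the lower control in 21 of the 97, against 14.8% of all rows. They were above both controls in 1, against 11.8%. The medians were -0.27 for 8 snoRNP assembly factors, -0.21 for 39 large subunit factors, -0.15 for 7 further genes of RNA polymerase I transcription, -0.14 for 12 genes of the RNA exosome, which trims rRNA precursors, and -0.10 for 31 small subunit factors. As in the list, DKK2 replicate 2 was below both controls in most (70 of 97, against 34.2% of all rows). DKK2 replicate 1 was below both in 36 and above both in 41, against 41.8% and 32.6% of all rows. MYC itself (Myc) stood at 64.62 and 45.09 FPKM in the controls and 57.58 and 52.03 FPKM with DKK2, with the DKK2 libraries between the controls (0.02 ± 0.29). Its partner Max stood at 75.71 and 51.87 FPKM in the controls and 58.97 and 59.99 FPKM with DKK2 (-0.07 ± 0.29). The MYC relative Mycn was low in all libraries, at 1.972 and 4.241 FPKM in the controls and 1.406 and 0.866 FPKM with DKK2, both under the lower control (-0.90 ± 0.44, unadjusted p = 0.0962 and adjusted p = 1 in limma).

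Because MYC and MAX bind the E-box CACGTG, the promoters of the list were searched for these letters, which read the same on both strands. RefSeq promoter windows (250 bases before to 50 after the start, build GRCm38.p6, which is not the authors' build) were found for 51 of the 58 genes, and 11 held the motif (21.6%), against 8.09% of all genes in the promoter table and 12.2% of those with a row tested. The 11 genes were all lower in the fit (median -0.35, 6 without overlap of the groups), and the 40 without the motif had a median of -0.31 (35 lower, 20 without overlap). In the whole list 53 of 58 were lower and 29 were without overlap. Of all rows 56.4% were lower, and in 14.8% both DKK2 libraries were below both controls. Differences between genes with and without the motif were not tested. Rrn3 is shown over its 250 upstream bases (chr16:13780449-13780698, plus strand), since it was the only gene with 2 motifs, which begin 215 and 48 bases before the start. Of the other 10 genes, 8 are shown as short windows around the motif, with CACGTG in capitals.
Rrn3: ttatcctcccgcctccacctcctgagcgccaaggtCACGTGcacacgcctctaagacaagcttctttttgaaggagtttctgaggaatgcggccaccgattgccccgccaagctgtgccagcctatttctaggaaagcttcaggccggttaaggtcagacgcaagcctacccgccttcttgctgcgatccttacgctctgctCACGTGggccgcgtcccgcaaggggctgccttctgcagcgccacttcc
Nop2: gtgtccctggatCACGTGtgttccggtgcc
Utp18: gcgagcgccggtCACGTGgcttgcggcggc
Pes1: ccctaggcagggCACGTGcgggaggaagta
Wdr43: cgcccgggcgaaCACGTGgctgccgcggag
Tsr1: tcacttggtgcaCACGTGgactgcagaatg
Ltv1: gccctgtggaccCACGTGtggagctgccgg
Utp20: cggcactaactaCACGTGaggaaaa
Pno1: tgtacaaccacgCACGTGttcctct
The motif begins 60 bases before the start in Nop2 (window chr6:125131811-125131840, plus strand) and 20 bases before it in Utp18 (chr11:93885769-93885798, minus strand). In the others shown it lies just after the RefSeq start, at base 3 in Pes1 (chr11:3963965-3963994, plus strand) and base 18 in Wdr43 (chr17:71616220-71616249, plus strand). It is at base 25 in Tsr1 (chr11:74898092-74898121, plus strand) and base 29 in Ltv1 (chr10:13193092-13193121, minus strand). In both Utp20 (chr10:88826765-88826789, minus strand) and Pno1 (chr11:17211540-17211564, minus strand) it is at base 38. Grwd1 and Mybbp1a, whose windows are not shown, complete the 11 genes. A match of letters is a description and does not show that a factor is bound in these cells.

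Exons of 18 of the 58 genes overlap those of another gene on the opposite strand in GENCODE M21, among them Nop56, Dkc1, Nhp2, Mybbp1a, Wdr3, Tsr1, Bop1 and Taf1d. The labels and headers do not say whether counting used strand, so reads of such pairs may not be told apart. The 18 genes had a median of -0.35 with 15 lower, and the 40 without overlap had a median of -0.34 with 38 lower. Of all rows tested, 56.4% were lower.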

How the data were processed

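RNA was measured in 4 libraries of mouse splenic NK cells, 2 per group, from kits for stranded total RNA, per the labels' protocols. The authors deposited 1 table of FPKM values with 37305 rows, per the file headers. The tools listed in the submitters' processing notes are TopHat2 2.1.0, Cuffdiff 2.1.0, CASAVA and edgeR, with the build mm9 and no stated roles. Annotation, strand use and treatment of multiply mapped fragments are not given in the sources used here. Columns were matched to samples by name, and 0 value columns were left aside. Relative depth was read from the most frequent ratio of values under 0.3 FPKM between libraries.

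Values were taken as log2(FPKM + 1), and rows with a mean of at least 1 FPKM were fitted with limma 3.58.1 in R 4.3.3 (lmFit, eBayes with trend, two-sided, Benjamini-Hochberg over 12275 rows, threshold 0.05). Fold changes are on that scale, which understates those of low genes. The fit was also run on simulated data with independent noise, a common spread for all genes and changes larger than any fitted in the list. That run therefore says nothing about differences as small as those described here. An exact permutation test of 2 against 2 libraries cannot go below p = 0.333 and was not used. The genes, their steps and the other lists were chosen with earlier results of these data known. Values per library are given for the 4 genes of each step with the largest fitted change, those of opposite sign to the step's median and the most abundant one. Some further genes of named complexes are also given, namely Wdr75, Nop58, Nop10, Nhp2, Dkc1 and Pes1. Values per library are not shown for Utp15 and Wdr43 of UtpA or for Tbl3, Wdr36 and Utp18 of UtpB. The sources do not say whether same-numbered libraries share an animal or day, so the main fit did not treat them as paired.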

Additional observations from a re-analysis of the deposited data

How the results depend on the processing

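limma called 0 of the 58 genes under every alternative, among them a pseudocount of 0.1, no filter, a minimum mean of 5 FPKM, quantile normalization, centring on the library median, no trend, each library left out and the GC adjustment, which was chosen after seeing the data (0 to 8 of the 58 at an unadjusted p under 0.05). The 8 came without the filter, where 4.15% of all rows were at that level, and without DKK2 replicate 1, where 3.26% were. The count over all rows was 4, and it was 0 without the filter, 0 with the GC adjustment, 8 with the replicate number as a block and 0 when any library was left out. With a library left out 1 group has a single library, which is assumed to vary like the other group, so a count of 0 there says nothing about stability. The block called 0 of the 58 genes and left the median of the list at -0.35. The deviations of same-numbered libraries had a correlation of 0.0117 across genes. The median of the list was -0.24 to -0.50 with a library left out and -0.28 to -0.35 otherwise. With a library left out, the medians ranged from -0.59 to -0.17 for the nucleolar factors, from -0.48 to 0.03 for the processome and from -0.54 to -0.20 for large subunit processing. In 20 of the 58 genes the sign turned when a library was left out, 13 of them without DKK2 replicate 2, and over the 4 libraries left out their values ranged from -0.32 to 0.23 for Ddx10, -0.42 to 0.19 for Ddx18, -0.86 to 0.53 for Gnl3, -0.62 to 0.20 for Ltv1, -0.44 to 0.19 for Nat10, -0.62 to 0.35 for Nip7, -0.53 to 0.10 for Nop10, -0.83 to 0.13 for Nop58, -0.72 to 0.17 for Polr1c, -0.21 to 0.44 for Polr1d, -0.66 to 0.24 for Polr1e, -0.40 to 1.11 for Taf1d, -0.12 to 0.28 for Utp14a, -0.70 to 0.47 for Utp18, -0.22 to 0.45 for Utp3, -0.32 to 0.16 for Utp6, -0.50 to 0.62 for Wdr3, -0.62 to 0.03 for Wdr36, -0.73 to 0.06 for Wdr43 and -0.71 to 0.60 for Wdr75. Centring turned Ddx10 from -0.04 to 0.02 and Wdr75 from -0.06 to 0.01. The median over all rows was -0.10 to 0.01 under the alternatives.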
